A study of Mus musculus with 20 samples.

Results

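Lin28a, Lin28b, Hmga1, Hmga2, Igf2bp2 and Igf2bp3 belong to 3 families of regulators that are active in embryonic and fetal tissue, are low in most adult tissues and return in many tumours, which is why they are called oncofetal. The 6 genes were taken by symbol from a mouse RNA-seq table of 43432 genes, where all 6 were found, and each was followed across 7 cell type labels. Lin28a and Lin28b are RNA-binding proteins that hold back the maturation of the let-7 family of microRNAs. Mature let-7 in turn pairs with the 3′ ends of many growth-related mRNAs, Lin28, Hmga2 and Igf2bp mRNAs among them, and lowers their output, so that Lin28 and let-7 oppose each other. Hmga1 and Hmga2 are small chromatin proteins that bind AT-rich DNA and bend it. Igf2bp2 and Igf2bp3 bind mRNAs, Igf2 mRNA among them, and affect their stability, transport and translation.

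The study sequenced RNA from 20 libraries of mouse cells, 15 of them from 5 cell lines that the labels describe as malignantly transformed near SU3, a human glioma stem cell line, and 5 from cells named as their precursors. All cells carry the strain label Nude Mouse, an immunodeficient animal, were grown in DMEM with fetal bovine serum, and are described as monoclonal cultures, so a line may be a single clone. C12 (3 libraries) was labelled as macrophages transformed in culture with SU3 and peritoneal washing cells, and ih_CTC (3) as macrophages from a peritoneal xenograft. ih_DCTC (3) was labelled as dendritic cells transformed in co-culture of SU3 and bone marrow dendritic cells, and ih_BCTC (3) as oligodendrocytes recultured from an SU3 brain tumour. ih_STC_BM (3) was labelled as mesenchymal stem cells grown out of an SU3 tumour, the host having had its marrow damaged and then rebuilt. MDSC (3) were myeloid-derived suppressor cells, and MSC (2) were mesenchymal stem cells of normal mouse bone marrow. The labels give no age, time point or genetic change for any group. The design text names C12, ih_CTC, ih_DCTC and ih_STC_BM as the transformed cells and MDSC and MSC as precursors, and does not mention ih_BCTC. Whether the libraries of 1 label came from separate cultures or animals is not stated, and the p-values below speak only of the spread among these libraries, which may be technical.

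Library totals lay between 8794777 and 12400640 estimated counts. The MDSC libraries were far more alike than those of any other group (chi-square per gene 1.72 to 3.32 between MDSC libraries, against 25.6 to 282 elsewhere, where 1 is counting noise). Intron reads made up 9.64 to 10.4% of the reads of MDSC libraries and 2.07 and 3.09% of those of MSC. In the lines their share ran from 1.02 to 8.52% and was under 3% in 5 line libraries: C12 replicates 1 and 2, ih_DCTC replicate 1, and ih_STC_BM replicates 1 and 3. The lines labelled as macrophages, dendritic cells or oligodendrocytes were low in the markers of those cells. The summed level of 10 leukocyte and myeloid markers was 6.02 to 53.3 CPM (counts scaled to a common library size) in the lines, 15059 to 15340 in MDSC and 17132 to 22877 in MSC. The summed level of 8 dendritic cell markers was at most 11.5 CPM in the lines, and that of 8 oligodendrocyte markers was 9.16 to 11.1 CPM in ih_BCTC, with 3 of the 8 at 1 CPM or more and Olig2, Sox10 and Mog at 0 counts, against 85.3 to 164 CPM in the precursors. Summed fibroblast and mesenchymal markers (10 genes) were 5084 to 22158 CPM in the lines, 8271 and 8587 in MSC and 871 to 912 in MDSC. MSC thus held leukocyte markers above the MDSC level, and MDSC held erythroid markers (7 genes found) at 16511 to 17320 CPM, against at most 9.23 CPM in any other library.

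Levels below are CPM scaled between libraries by the trimmed mean of M values. Differences are log2 fold changes with their standard error (SE) from edgeR's quasi-likelihood test over 15779 genes, and a gene was called at a Benjamini-Hochberg adjusted p under 0.05. Where a group had 0 counts, a fold is given as a lower bound against 3 counts over that group. Where it had 1 to 3 counts, the ratio of CPM is given with a 95% interval that covers counting error only. The 5 lines were compared with the same MDSC and MSC libraries, so these comparisons share their controls.

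Lin28b, Hmga1, Hmga2, Igf2bp2 and Igf2bp3 were higher in every one of the 5 lines than in MDSC and than in MSC. Lin28a was detected in MDSC only, so it was lower in the lines than in MDSC and at 0 counts in both the lines and MSC. Against MDSC, 6 of 6 genes were called in each line, 5 higher and 1 lower. Lin28a passed the filter on counts only through MDSC, and Lin28b only through the lines, so the direction of their calls was fixed by the filter. The share of all tested genes called in either direction was 61.7% for C12, 55.3% for ih_CTC, 59.3% for ih_DCTC, 55.9% for ih_BCTC and 61.7% for ih_STC_BM, and the share called higher was 31.3%, 28.2%, 31.2%, 28.7% and 32.3% in the same order. The share called lower was 30.5%, 27.1%, 28.1%, 27.3% and 29.4%. Against MSC, 5 of 6 were called in each line, all higher, and Lin28a had 0 counts on both sides. There the share of all tested genes called was 33.1% for C12, 34.6% for ih_CTC, 34.1% for ih_DCTC, 36.7% for ih_BCTC and 32.1% for ih_STC_BM, and the share called higher was 14.7%, 14.7%, 16%, 15.9% and 14.8%. MDSC differed from MSC in 5 of the 6, with Lin28a higher and Hmga1, Hmga2, Igf2bp2 and Igf2bp3 lower, while 46% of all tested genes were called, 20.4% higher and 25.6% lower. In such bulk samples fewer cells of a type and less RNA per cell cannot be told apart.

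**Figure D1:**
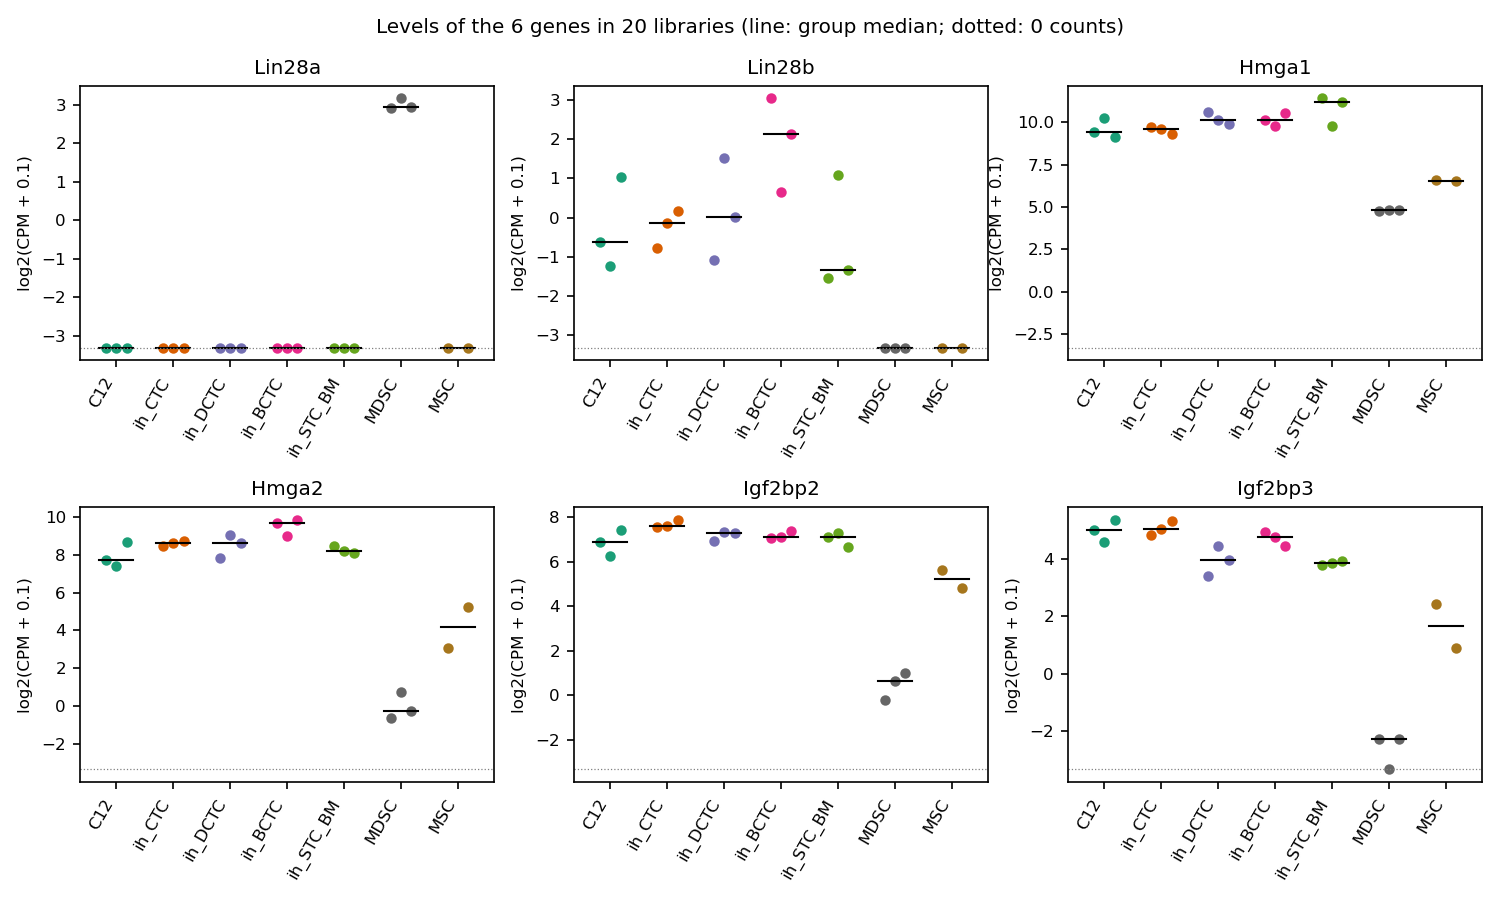
Level of each of the 6 genes in the 20 libraries, as log2(CPM + 0.1), by cell type label. Points are libraries, bars are group medians and the dotted line marks 0 counts. Lin28a leaves the dotted line only in MDSC, and the other 5 genes are higher in all 15 line libraries than in any MDSC or MSC library.

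Lin28a (ENSMUSG00000050966, chromosome 4, 134003330 to 134018841, minus strand in the deposited annotation) had 7.51, 8.90 and 7.56 CPM in the MDSC libraries, from 68, 74 and 71 counts. All 15 line libraries and both MSC libraries had 0 counts. The MDSC level was 7.99 ± 0.786 CPM (SD, n = 3). Lin28a was at least 82.2-fold lower in C12, 91.1-fold lower in ih_CTC, 85.8-fold lower in ih_DCTC, 95.5-fold lower in ih_BCTC and 65.8-fold lower in ih_STC_BM than in MDSC (edgeR adjusted p between 1.80e-04 and 2.36e-04), and at least 55.7-fold higher in MDSC than in MSC (edgeR adjusted p = 8.15e-04). The libraries that held Lin28a were those with the erythroid markers and with the highest share of reads in introns, and the part of the erythroid cells in this result was not tested. With the intron share as a covariate the difference was no longer called for C12 (edgeR adjusted p = 0.208), ih_DCTC (0.130), ih_BCTC (0.0874) and MDSC against MSC (0.346), while ih_CTC and ih_STC_BM kept it.

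Lin28b (ENSMUSG00000063804, chromosome 10, 45376620 to 45470201, minus strand) was detected in the lines only, at a low level. It had 0 counts in all 3 MDSC and both MSC libraries and was detected in all 15 line libraries. The C12 libraries had 0.550, 0.329 and 1.96 CPM, those of ih_CTC 0.481, 0.816 and 1.03, and those of ih_DCTC 0.374, 2.78 and 0.907. It was 8.11, 1.46 and 4.25 CPM in ih_BCTC and 0.247, 2.03 and 0.293 in ih_STC_BM. The ih_BCTC mean was the highest, 4.61 ± 3.34 CPM (SD, n = 3), but the libraries of ih_BCTC spread by 5.55 times and overlapped those of C12, ih_DCTC and ih_STC_BM.

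Against MDSC, Lin28b was at least 9.50-fold higher in C12, 7.01-fold in ih_CTC, 13.8-fold in ih_DCTC, 42.6-fold in ih_BCTC and 8.63-fold in ih_STC_BM (edgeR adjusted p from 4.27e-04 in ih_BCTC to 0.0108 in ih_CTC). Against MSC the bounds were 7.45-fold for C12, 5.50-fold for ih_CTC, 10.8-fold for ih_DCTC, 33.4-fold for ih_BCTC and 6.77-fold for ih_STC_BM (edgeR adjusted p from 0.00269 in ih_BCTC to 0.0338 in ih_CTC). The comparison with MSC was the least secure of those of the 5 higher genes. Leaving out either MSC library ended the Lin28b call in C12 (edgeR adjusted p = 0.116 and 0.127), ih_CTC (0.144 with either), ih_DCTC (0.0834 and 0.0907) and ih_STC_BM (0.128 and 0.145). Leaving out ih_STC_BM replicate 2, which held most of that line's Lin28b, also ended the calls of ih_STC_BM against MSC (0.121) and against MDSC (0.0659). The same held against MSC without C12 replicate 3 (0.0749) and without ih_CTC replicate 2 (0.0563) or 3 (0.0646). Against MSC, a test for a log2 fold change above 1 ended the calls of ih_CTC (edgeR adjusted p = 0.0633) and ih_STC_BM (0.0592). Fitted on ih_STC_BM and MSC alone, Lin28b was not called either (0.118).

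Lin28b was lowest, in each line concerned, in the libraries with few intron reads. The 5 libraries under 3% had 0.247 to 0.550 CPM, and the other 10 had 0.481 to 8.11 CPM. Hmga2 was also lowest in such libraries within C12 and ih_DCTC, and Hmga1 was highest in such libraries within C12, ih_DCTC and ih_STC_BM. The part of RNA quality or library preparation in these differences within lines was not tested. With the intron share as a covariate, the Lin28b call of ih_CTC against MSC ended (log2 fold change 4.02, edgeR adjusted p = 0.0808), and its other calls were kept. With all 5 libraries left out, Lin28b was still called against MDSC and MSC in ih_CTC, ih_DCTC and ih_BCTC. C12 and ih_STC_BM then held 1 library each, which was assumed to vary like the other groups, and for ih_STC_BM it was replicate 2, the highest. Both MSC libraries, with 2.07 and 3.09% intron reads, stayed in that fit.

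**Figure D2:**
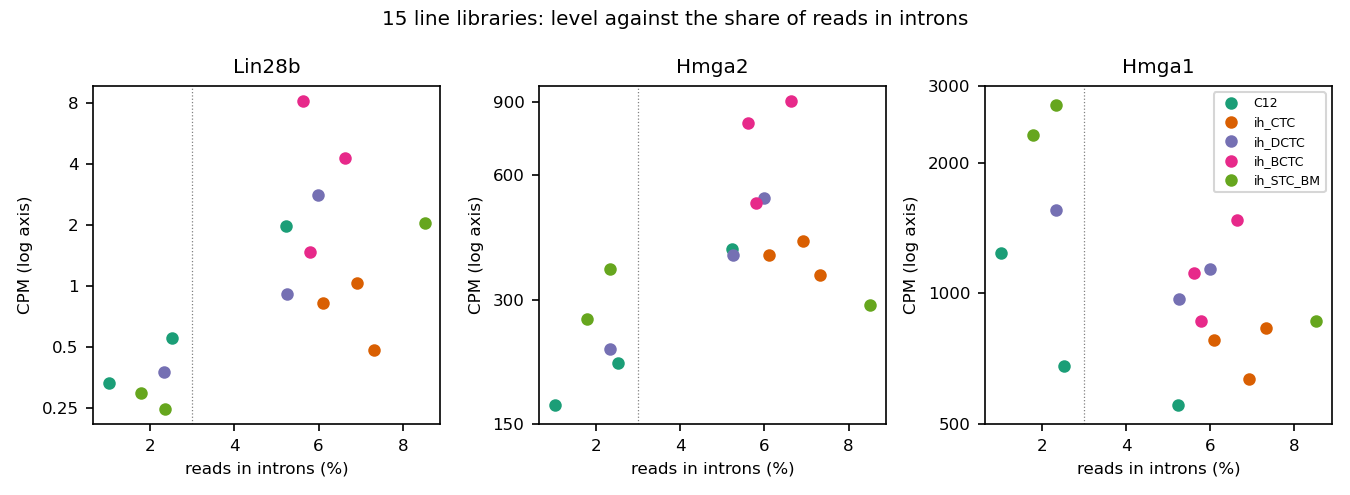
Level of Lin28b, Hmga2 and Hmga1 (CPM, log axis) against the share of reads in introns (%) in the 15 line libraries, coloured by line. The dotted line marks 3%. The 5 libraries to its left have 0.247 to 0.550 CPM of Lin28b, and the 3 highest Hmga1 levels are among them.

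The let-7 family through which Lin28 acts was not measured in these libraries: 10 let-7 hairpin genes are in the table and all had 0 counts in all 20 libraries, and long-RNA libraries do not capture the mature form. The sequences below are background on let-7 and on the stretches of the 6 genes that are complementary to part of it. In RefSeq's mouse annotation 11 mature let-7 names were found, and 10 of them share the seed GAGGUAG, while mmu-let-7j has GAGGUAU. The seed, bases 2 to 8 and in capitals here, is the part that pairs with target mRNAs. The bases after it differ by a few positions between members.
mmu-let-7a-5p: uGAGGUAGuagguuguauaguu
mmu-let-7g-5p: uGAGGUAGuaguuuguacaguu
mmu-miR-98-5p: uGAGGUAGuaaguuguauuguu

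Lin28 is known to recognise a GGAG motif in the loop of let-7 precursors. GGAG, searched on the transcript strand between the mature arms, was present in 9 of 12 let-7 family hairpins and in 44 of 633 other mouse hairpins (6.95%). The 3 hairpins without it were Mirlet7c-2, Mirlet7b and Mir98. A match is a description of these letters and not a measured binding site. A hairpin with the motif (capitals) and one without it are given for comparison.
Mirlet7g: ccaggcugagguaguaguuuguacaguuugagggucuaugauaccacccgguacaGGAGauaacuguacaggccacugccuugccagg
Mirlet7b: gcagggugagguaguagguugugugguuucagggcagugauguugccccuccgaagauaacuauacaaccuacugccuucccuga

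The complement of the seed, CTACCTC, was searched on the transcript strand in 1 annotated 3′ UTR per coding gene (GENCODE release M21, build GRCm38). All 6 genes held it: Lin28b and Hmga2 4 times each, Lin28a 2 times, and Hmga1, Igf2bp2 and Igf2bp3 1 time each. Of 21039 genes, 9.02% held it at least once and 12 genes held at least 4. Among 3′ UTRs within 20% of the same length, 0.134% held as many as Hmga2, 0.236% as many as Lin28b and 2.06% as many as Lin28a. The shares were larger for the genes with 1 site, at 8.07% for Hmga1, 12.04% for Igf2bp2 and 13.3% for Igf2bp3. The stretches below show the match in capitals, with the site nearest the stop codon for genes that have several, and all 4 for Hmga2.
Lin28a, chr4:134005188-134005211, minus strand: gcacagcctgttgaaCTACCTCat
Lin28b, chr10:45381021-45381044, minus strand: acccgggcgggaagtCTACCTCat
Hmga1, chr17:27563277-27563300, plus strand: tcctctgttcacaaaCTACCTCtg
Hmga2, chr10:120364223-120364246, minus strand: gccgacattcaatttCTACCTCag
Hmga2, chr10:120362986-120363009, minus strand: ccccactcctcaataCTACCTCtg
Hmga2, chr10:120362548-120362571, minus strand: ctgatttgcaaggaaCTACCTCca
Hmga2, chr10:120361690-120361713, minus strand: aatcaaaacacactaCTACCTCtt
Igf2bp2, chr16:22059472-22059495, minus strand: acacacaaataaaagCTACCTCag
Igf2bp3, chr6:49086786-49086809, minus strand: tgcatttttactcaaCTACCTCag

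Hmga2 (ENSMUSG00000056758, chromosome 10, 120361275 to 120476469, minus strand), the gene of a fetal chromatin protein, rose further than Hmga1 and Igf2bp2 in each line against each precursor, except that Hmga1 rose further in ih_STC_BM against MSC. Over MDSC, the ratio of Igf2bp3 was larger than the fold of Hmga2 in C12 (444.5 against 270) and ih_CTC (454 against 399). It was smaller in the other lines. These differences between genes were not tested. Its level was 211, 167 and 397 CPM in C12, 344, 385 and 415 in ih_CTC, 228, 529 and 384 in ih_DCTC, 802, 513 and 905 in ih_BCTC, and 356, 291 and 270 in ih_STC_BM. MDSC libraries had 0.552, 1.56 and 0.746 CPM, and MSC libraries 8.44 and 37.5. Every line library exceeded every precursor library, and the MSC libraries differed from each other by 4.44 times.

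The log2 fold change of Hmga2 over MDSC was 8.08 ± 0.65 (SE) in C12, 8.64 ± 0.67 in ih_CTC, 8.64 ± 0.67 in ih_DCTC, 9.60 ± 0.69 in ih_BCTC and 8.32 ± 0.66 in ih_STC_BM (edgeR adjusted p between 3.73e-09 and 1.55e-08). Over MSC it was 3.49 ± 0.60 in C12, 4.05 ± 0.62 in ih_CTC, 4.05 ± 0.62 in ih_DCTC, 5.01 ± 0.65 in ih_BCTC and 3.73 ± 0.61 in ih_STC_BM (edgeR adjusted p between 1.19e-05 and 2.45e-04). The log2 fold change of MDSC over MSC was -4.59 ± 0.60 (edgeR adjusted p = 1.09e-05). The size of the rise over MSC depended on which MSC library was used, from 2.78 to 4.94 in C12 and from 4.30 to 6.45 in ih_BCTC over the fits that left out 1 library, and the call was kept in each.

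Hmga1 (ENSMUSG00000046711, chromosome 17, 27556620 to 27563674, plus strand) was the most abundant of the 6 per kb of transcript in every group. Per kb of its longest coding transcript it stood at 375 ± 50.9 (SD, n = 3) in ih_CTC and 980 ± 486 in ih_STC_BM, the ends of the range of line means, at 13.99 ± 0.17 in MDSC and at 47.1 ± 0.68 (n = 2) in MSC. In the lines the next was Hmga2, with means of 67.8 to 194 CPM per kb. In CPM, Hmga1 stood at 680, 1236 and 553 in the C12 libraries, 831, 782 and 635 in those of ih_CTC, and 1558, 1138 and 970 in those of ih_DCTC. It was 1116, 866 and 1476 CPM in ih_BCTC and 2711, 861 and 2309 in ih_STC_BM, against 27.6, 28.1 and 28.2 in MDSC and 95.2 and 93.3 in MSC. The line libraries did not overlap with either precursor, while the lines overlapped with each other, apart from ih_CTC, which lay below ih_DCTC, ih_BCTC and ih_STC_BM.

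The log2 fold change of Hmga1 over MDSC was 4.88 ± 0.44 (SE) in C12, 4.74 ± 0.44 in ih_CTC, 5.45 ± 0.45 in ih_DCTC, 5.36 ± 0.45 in ih_BCTC and 6.13 ± 0.47 in ih_STC_BM (edgeR adjusted p between 7.86e-09 and 7.44e-08). Over MSC it was 3.13 ± 0.48 in C12, 2.99 ± 0.48 in ih_CTC, 3.70 ± 0.49 in ih_DCTC, 3.61 ± 0.49 in ih_BCTC and 4.38 ± 0.51 in ih_STC_BM (edgeR adjusted p between 4.49e-06 and 9.92e-05). For MDSC over MSC it was -1.75 ± 0.42 (edgeR adjusted p = 0.00246), which was not called with the intron share as a covariate (log2 fold change -0.18, edgeR adjusted p = 0.762) or with the MDSC libraries summed to 1 sample (-1.66, edgeR adjusted p = 0.0751).

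In the reference transcripts, 30.1% of the 150-base windows of Hmga1 also occur in transcripts of other genes, so its estimated counts are uncertain to the extent that reads were divided among them.

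Igf2bp2 (ENSMUSG00000033581, chromosome 16, 22059009 to 22163299, minus strand) had line means between 122 CPM in C12 and 205 CPM in ih_CTC. The C12 libraries had 118, 76.2 and 172 CPM, the ih_CTC libraries 188, 193 and 233, and the ih_DCTC libraries 121, 159 and 157. There were 133, 135 and 166 CPM in ih_BCTC, and 137, 153 and 101 in ih_STC_BM. It was 0.773, 1.44 and 1.92 CPM in MDSC and 49.6 and 28.4 in MSC. MSC thus held more Igf2bp2 than MDSC, and every line library was above both MSC libraries.

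The log2 fold change of Igf2bp2 over MDSC was 6.46 ± 0.41 (SE) in C12, 7.20 ± 0.42 in ih_CTC, 6.71 ± 0.42 in ih_DCTC, 6.70 ± 0.42 in ih_BCTC and 6.55 ± 0.41 in ih_STC_BM (edgeR adjusted p between 4.05e-10 and 1.05e-09). Over MSC it was 1.65 ± 0.37 in C12, 2.39 ± 0.38 in ih_CTC, 1.90 ± 0.37 in ih_DCTC, 1.89 ± 0.37 in ih_BCTC and 1.74 ± 0.37 in ih_STC_BM (edgeR adjusted p between 1.07e-04 and 0.00228). For MDSC over MSC it was -4.81 ± 0.40 (edgeR adjusted p = 6.69e-08). The C12 call over MSC ended without MSC replicate 2 (log2 fold change 1.30, edgeR adjusted p = 0.0548) and in a test for a log2 fold change above 1 (edgeR adjusted p = 0.0606).

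Igf2bp3 (ENSMUSG00000029814, chromosome 6, 49085221 to 49214954, minus strand) had 31.9, 23.9 and 40.8 CPM in C12, 28.6, 32.6 and 40.2 in ih_CTC, 10.6, 21.7 and 15.5 in ih_DCTC, 30.2, 26.8 and 21.6 in ih_BCTC, and 13.6, 14.5 and 15.1 in ih_STC_BM. It had 5.31 and 1.76 CPM in MSC, and in MDSC 1.34, 0 and 1.38 estimated counts, or 0.110, 0 and 0.107 CPM. The lowest line library, of ih_DCTC, was 10.6 CPM and still above both MSC libraries. Over MDSC the ratio of CPM was 444.5 (95% interval 122.7 to 3675) in C12, 454 (125.5 to 3756) in ih_CTC, 225 (62.1 to 1866) in ih_DCTC, 354 (97.7 to 2926) in ih_BCTC and 192 (52.8 to 1592) in ih_STC_BM (edgeR adjusted p between 2.53e-09 and 1.62e-08).

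Over MSC the log2 fold change of Igf2bp3 was 3.19 ± 0.47 (SE) in C12, 3.26 ± 0.47 in ih_CTC, 2.18 ± 0.45 in ih_DCTC, 2.90 ± 0.46 in ih_BCTC and 2.03 ± 0.45 in ih_STC_BM (edgeR adjusted p between 3.50e-05 and 0.00203). Fitted on ih_STC_BM and MSC alone, the last of these was not called (edgeR adjusted p = 0.0852). The size again depended on the MSC library: without MSC replicate 1 the log2 fold change was 4.19 in C12 and 3.03 in ih_STC_BM, and without MSC replicate 2 it was 2.60 and 1.44, with the call kept in each. MSC exceeded MDSC 45.3 times (95% interval 12.1 to 381, edgeR adjusted p = 4.68e-06). Igf2bp3 overlaps Malsu1, a gene on the opposite strand, with which it shares 16.9% of its 150-base windows, and the sources used here do not say whether counting used the strand. Malsu1 was at 6.62 CPM in MDSC, 17.5 in MSC and 14.98 to 28.7 as line means, so its level differed less between groups than that of Igf2bp3.

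**Figure D3:**
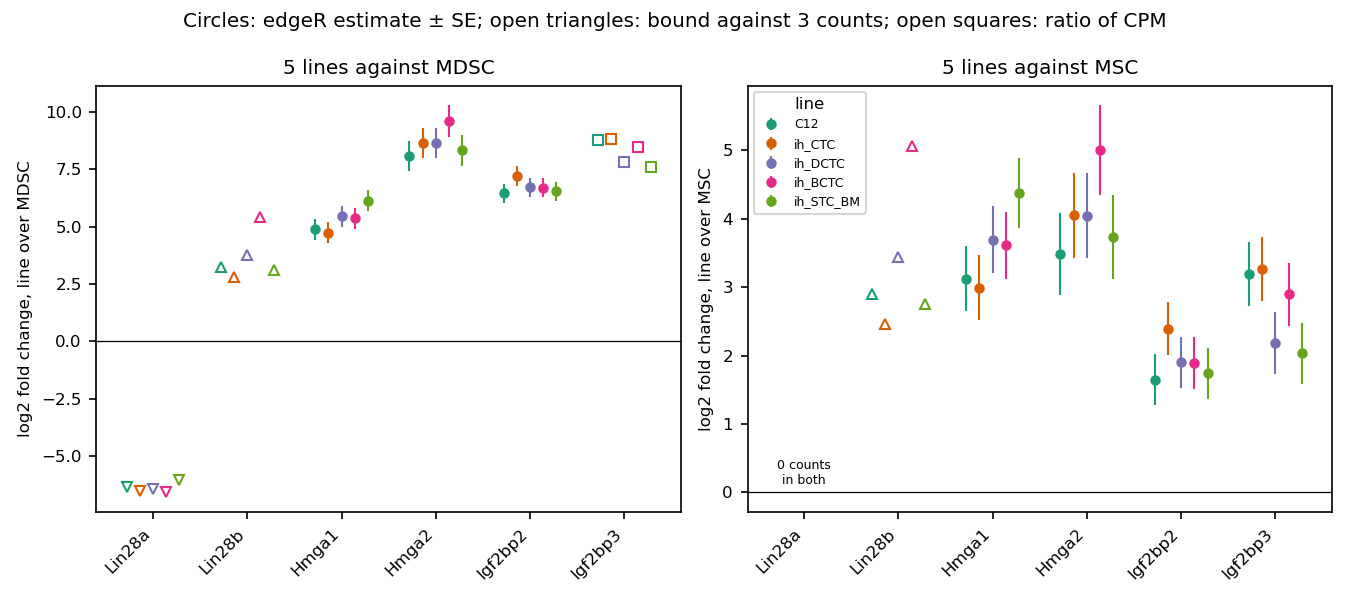
Log2 fold change of each gene in each line over MDSC (left) and over MSC (right). Circles are edgeR estimates with bars of 1 SE, open triangles are bounds against 3 counts and open squares are ratios of CPM. For each gene with counts on either side all 5 lines fall on the same side of 0, and Lin28a has 0 counts in both groups of the right panel. Hmga2 over MDSC is the highest circle, at 8.08 to 9.60, and the open squares of Igf2bp3 lie above it in C12 and ih_CTC.

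The third paralogue, Igf2bp1 (ENSMUSG00000013415), which is not among the 6, moved with its relatives. It had 0 counts in MDSC, 0.937 and 0.351 CPM in MSC and line means of 47.2 ± 10.0 (SD, n = 3) in ih_STC_BM to 56.2 ± 10.4 in ih_CTC. Over MSC its log2 fold change was 6.20 ± 0.42 (SE) in ih_STC_BM to 6.45 ± 0.42 in ih_CTC (edgeR adjusted p between 1.44e-08 and 2.96e-08). Per kb of transcript, Igf2bp2 made up 62.7 to 83.1% of the summed family level in the line libraries, Igf2bp1 7.18 to 19.6% and Igf2bp3 6.19 to 17.6%. In MSC Igf2bp2 made up 90.5 and 94.2% and Igf2bp1 0.543 and 0.796%, so the share of Igf2bp1 did not overlap between MSC and the lines.

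**Figure D4:**
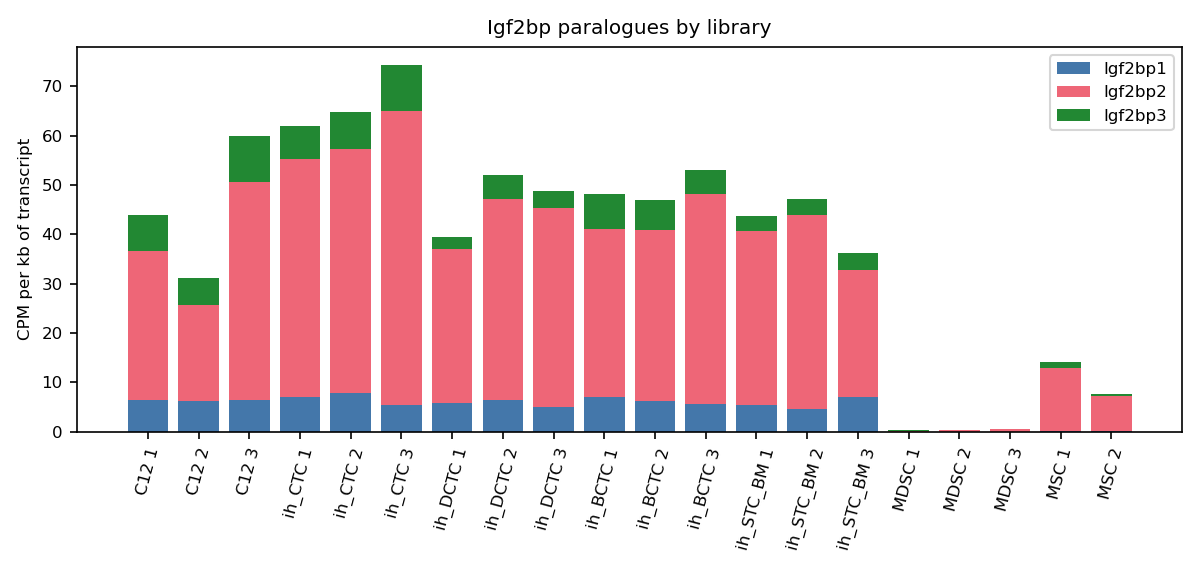
Levels of Igf2bp1, Igf2bp2 and Igf2bp3 in each of the 20 libraries, stacked, in CPM per kb of the longest coding transcript. Igf2bp2 is the largest part of every line and MSC bar (62.7 to 94.2%), Igf2bp1 is visible only in the lines, and the MDSC bars are close to 0.

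Ordered by mean level, the 5 genes other than Lin28a had all lines above MSC and, except for Lin28b with 0 counts in both, MSC above MDSC. The step from the lowest line to the next precursor was past the test for each: for Lin28b from ih_CTC to MDSC (edgeR adjusted p = 0.0108), for Hmga1 from ih_CTC to MSC (9.92e-05), for Hmga2 from C12 to MSC (2.45e-04), for Igf2bp2 from C12 to MSC (0.00228) and for Igf2bp3 from ih_STC_BM to MSC (0.00203). No 2 lines that stood next to each other in any of these orders differed past the test (edgeR adjusted p from 0.279 upwards). Among lines the highest mean was that of ih_BCTC for Lin28b and Hmga2, ih_STC_BM for Hmga1, and ih_CTC for Igf2bp2 and Igf2bp3, except that C12 came before ih_CTC for Igf2bp3 under upper-quartile scaling.

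Of the 10 pairs of lines, 2 held a called member in edgeR's test. Hmga2 was lower in C12 than in ih_BCTC (log2 fold change -1.52 ± 0.47, SE, edgeR adjusted p = 0.0304, where 20% of all genes were called). Hmga1 was lower in ih_CTC than in ih_STC_BM (-1.39 ± 0.38, edgeR adjusted p = 0.0198), and Igf2bp3 was higher (1.23 ± 0.36, edgeR adjusted p = 0.0274, where 18.2% of all genes were called). The libraries of the compared lines did not overlap in these 3 cases. In the other 8 pairs edgeR called 0 members, while 9 member and pair combinations had an unadjusted p under 0.05, DESeq2 called 5 and limma-voom called 4. The share of all genes called in those pairs was 16.5% for C12 against ih_CTC, 12.2% for C12 against ih_DCTC, 7.53% for C12 against ih_STC_BM, 8.21% for ih_CTC against ih_DCTC, 6.29% for ih_CTC against ih_BCTC, 0% for ih_DCTC against ih_BCTC, 10.9% for ih_DCTC against ih_STC_BM and 20.4% for ih_BCTC against ih_STC_BM. With the 5 libraries of low intron share left out, C12 and ih_STC_BM held 1 library each, assumed to vary like the other groups, and none of the 3 differences was called. The log2 fold change was then -0.88 for Hmga2 (edgeR adjusted p = 0.338), -0.21 for Hmga1 (0.577) and 1.21 for Igf2bp3 (0.0623), so that of Igf2bp3 hardly moved.

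For each gene the 3 others with the most similar level across the 20 libraries (Pearson's r of log2 CPM, a description in which all points share the same 20 libraries and 7 groups) were named. Lin28a resembled Igkv8-28, an immunoglobulin segment, Slc6a20a and Prf1, the perforin gene of cytotoxic lymphocytes, each at 0 outside MDSC (r of at least 0.99997). Genes counted only in the closely alike MDSC libraries give an r near 1 by construction, so the choice of these 3 carries little weight. Lin28b was closest to Fzd4, a Wnt receptor, Nudcd1 and Nr1h5 (r = 0.92, 0.91 and 0.91). Hmga1 was closest to Tead2 (0.98), a transcription factor of the Hippo pathway, Trip6 (0.97) and Ngef (0.97). Hmga2 was closest to Wwtr1 (0.99), the Hippo pathway coactivator TAZ, Mcc (0.98) and Nr2f2 (0.98). Igf2bp2 was closest to Dpysl3, Lphn2 and Gjc1 (0.99, 0.99 and 0.98), and Igf2bp3 to Foxf2, Trim32 and Mtx2 (0.98, 0.98 and 0.97). All neighbours named for genes other than Lin28a had higher means in every line than in MDSC and MSC. Many genes share that pattern, so the choice among them also carries little weight.

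Genes that process or destroy let-7 (15 listed, all tested) moved in both directions. Over MDSC, 4 to 7 were higher and 4 or 5 lower in a line, with a median log2 fold change of -0.17 in C12 to 0.68 in ih_BCTC, beside 0.03 to 0.10 over all genes. There 28.2 to 32.3% of all genes were called higher and 27.1 to 30.5% lower. The clearest fall was in Zcchc6 (Tut7), a uridylyltransferase that tails let-7 precursors, from 307 ± 7.3 CPM (SD, n = 3) in MDSC to line means of 34.8 ± 15.5 in C12 to 67.6 ± 5.1 in ih_BCTC. Its log2 fold change was -3.14 ± 0.47 (SE) in C12 to -2.19 ± 0.45 in ih_BCTC (edgeR adjusted p between 2.26e-05 and 5.33e-04). Zcchc11 (Tut4), the partner enzyme of Lin28 in this tailing, fell in C12 (-2.43 ± 0.74), ih_DCTC (-1.80 ± 0.73) and ih_STC_BM (-2.70 ± 0.75), and was 161 ± 2.9 CPM in MDSC. MSC held less of both than MDSC, with 48.1 ± 1.2 and 21.4 ± 2.2 CPM (n = 2).

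Over MSC, 3 to 5 of the 15 were higher and 0 or 1 lower in a line, where 14.7 to 16% of all genes were called higher. The higher ones included Xpo5, the exporter of microRNA precursors, and Drosha, the nuclear enzyme that cuts them out, in all 5 lines. Xpo5 was higher by 1.30 ± 0.48 in ih_DCTC to 1.74 ± 0.49 in ih_CTC (edgeR adjusted p between 0.00991 and 0.0442), and Drosha by 0.97 ± 0.28 in ih_STC_BM to 1.72 ± 0.28 in ih_BCTC (edgeR adjusted p between 1.28e-04 and 0.0122). For Xpo5 the libraries of ih_STC_BM (78.1 ± 64.0 CPM, SD) overlapped those of MSC (30.6 ± 6.4). The intron share was highest in MDSC and differed between line libraries, and its part in these list differences was not tested.

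Other known let-7 targets (24 listed, all tested) included genes called in both directions in every line. Over MDSC, 5 to 9 were higher and 4 to 9 lower in a line, with a median between -0.33 in C12 and 0.19 in ih_CTC and ih_BCTC. Of all tested genes, 28.2 to 32.3% were called higher there and 27.1 to 30.5% lower. Over MSC, 5 to 10 were higher and 2 to 5 lower, with a median of 0.17 in C12 to 0.94 in ih_CTC, beside 0.00 to 0.05 over all genes. There 14.7 to 16% of all tested genes were called higher, and 32.1 to 36.7% in either direction. Ccnd1, the cyclin D1 gene, rose over MDSC by 6.49 ± 0.53 in ih_STC_BM to 7.75 ± 0.56 in ih_BCTC, from 3.54 ± 0.36 CPM, and stood at 325 ± 23.4 CPM in MSC (n = 2). Arid3b, a DNA-binding factor and let-7 target, went the other way in all 10 comparisons of a line with a precursor. It was 45.6 ± 2.6 CPM in MDSC and 9.55 ± 0.40 in MSC, against 0.204 ± 0.163 in C12, 0.323 ± 0.174 in ih_STC_BM, 1.82 ± 0.479 in ih_CTC, 3.51 ± 1.67 in ih_DCTC and 4.19 ± 0.758 in ih_BCTC (edgeR adjusted p of 0.0358 or less). Irs2, an insulin receptor substrate, was lower in all lines than in MDSC (-3.88 ± 0.50 in C12 to -3.23 ± 0.49 in ih_STC_BM) and higher than in MSC (2.04 ± 0.55 in C12 to 2.69 ± 0.57 in ih_STC_BM).

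Igf2, whose mRNA gave the Igf2bp family its name, was not raised with it over MSC. It had 8.61 and 82.8 CPM in MSC, 5.05 to 6.06 in ih_CTC and at most 2.61 in any library of the other lines, and at most 0.361 in MDSC. Igf2 was lower than in MSC in all 5 lines, with a log2 fold change of -3.07 ± 0.87 in ih_CTC (edgeR adjusted p = 0.0113) and up to -8.01 ± 1.16 in C12 (edgeR adjusted p = 4.66e-05) among those with a fitted fold. Igf1, the related growth factor, was 335 ± 8.2 CPM in MSC (n = 2) and at most 1.32 in any line library (log2 fold change -9.72 ± 0.60 in ih_DCTC and ih_BCTC to -8.65 ± 0.57 in ih_STC_BM). H19, the non-coding RNA beside Igf2, was uneven: 149 ± 125 CPM (SD, n = 3) in ih_STC_BM, 18.4 ± 6.39 in ih_CTC, 7.76 ± 2.07 in C12, 8.43 ± 4.72 in MSC (n = 2), and 1 and 2 counts in all of ih_DCTC and ih_BCTC. Of the 9 genes of the Igf2 axis, 2 or 3 were higher and 2 or 3 lower in a line than in MSC, with a median of 0.13 in ih_BCTC to 0.48 in ih_STC_BM. Of all tested genes, 14.7 to 16% were called higher there, and 32.1 to 36.7% in either direction.

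Among 10 genes of Igf2bp ribonucleoprotein particles, Igf2bp1 and Pabpc1, the poly(A)-binding protein gene, were the 2 that were higher than in MSC in every line. Pabpc1 was higher by 1.31 ± 0.26 in C12 to 1.75 ± 0.26 in ih_DCTC over MSC (edgeR adjusted p between 5.24e-05 and 7.24e-04), and by 0.86 ± 0.22 in C12 to 1.31 ± 0.22 in ih_DCTC over MDSC. The median of the list over MSC was 0.15 in C12 to 0.93 in ih_BCTC, where 14.7 to 16% of all genes were called higher. Of the 7 other high-mobility-group genes, 2 were higher and 5 lower than in MDSC in C12, 2 and 4 in both ih_DCTC and ih_STC_BM, 2 and 2 in ih_CTC, and 3 and 2 in ih_BCTC. Their median over MDSC was -1.37 in C12 to -0.12 in ih_BCTC, where 28.2 to 32.3% of all genes were called higher and 27.1 to 30.5% lower. Over MSC, 0 to 2 were higher and 0 lower in a line, where 14.7 to 16% of all genes were called higher. Over MDSC, Hmgn1 and Hmgn3, nucleosome-binding proteins, were higher in all 5 lines (1.69 ± 0.30 to 2.19 ± 0.31 and 1.91 ± 0.45 to 2.97 ± 0.46), while Hmgn2 and Hmgb2 were lower in all 5 (-3.15 ± 0.46 to -2.21 ± 0.44 and -2.67 ± 0.52 to -1.55 ± 0.50). Over MSC the called ones were Hmgb3 in ih_CTC (1.35 ± 0.44) and ih_BCTC (2.11 ± 0.45), and Hmgb1 in ih_BCTC (1.05 ± 0.36).

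Other oncofetal genes varied between lines. Dlk1, a fetal Notch-like ligand, was 3.52 ± 1.64 CPM (SD, n = 3) in C12, 131 ± 76.9 in ih_CTC, 199.5 ± 69.3 in ih_DCTC, 136 ± 29.5 in ih_BCTC and 58.8 to 3440.1 over the ih_STC_BM libraries, against 0.860 ± 0.125 in MDSC and 0.252 ± 0.232 in MSC (n = 2). Of 10 tested members of that list, 5 to 8 were higher and 0 to 2 lower than in MDSC in a line, where 28.2 to 32.3% of all genes were called higher and 27.1 to 30.5% lower. Over MSC, 2 were higher and 1 lower in C12, 6 and 2 in ih_CTC, 5 and 4 in both ih_DCTC and ih_BCTC, and 4 and 1 in ih_STC_BM, where 14.7 to 16% of all genes were called higher, with medians over MSC of -0.89 in ih_BCTC to 3.13 in ih_CTC. Igf2bp1 is in this list and in 2 of those above. Of 13 pluripotency genes, 2 had enough counts to be tested, Sox2 and Klf4. Over MDSC, 1 of the 2 was called lower in C12, ih_CTC, ih_DCTC and ih_STC_BM, and 0 or 1 were called higher in a line. Over MSC, 1 or 2 were called higher and 0 lower. Pou5f1, which encodes the core factor Oct4, and Sall4 had 0 counts in all 20 libraries. Sox2, a factor of stem and neural progenitor cells, stood at 62.4 ± 35.3 CPM in ih_DCTC, 104 ± 16.6 in ih_BCTC and 0.880 to 18.1 over the ih_STC_BM libraries, and at 0.263 or less in every library of the other 4 groups.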

How the data were processed

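RNA of 20 mouse libraries was sequenced with reads of 150 bases. The values are expected counts per gene as the authors deposited them and 8.37% were not whole. Tools listed in those notes that the submitters gave on processing are DESeq2, RSEM (version 1.2.26) and STAR, with no role stated for any. No source used here names the genome build. Groups followed the labels. Counts were rounded and tested with edgeR 4.0.16 (quasi-likelihood, robust) on all 20 libraries with 1 mean per group, scaled by the trimmed mean of M values. Genes were kept by edgeR's filter by group (minimum count 10, minimum total 15), which left 15779 of 43432. Benjamini-Hochberg adjustment was made over these within each comparison. SE is the log2 fold change divided by the square root of F. Transcript lengths, shared windows and 3′ UTRs came from GENCODE M21 (GRCm38), where 3 of the 6 genes have identical positions, and microRNA sequences from RefSeq (GRCm38.p6). The scripts were tested on simulated data. From each pathway list, up to 3 called genes per direction and comparison whose change was largest, with 5 CPM or more in the higher group, were eligible to be named, beside the 3 most similar genes per member; Pou5f1, Sall4 and Malsu1 were named after their values were seen. The members and lists were chosen with earlier results of these data known. Alternatives were other scalings, filters and tools (DESeq2 1.42.0, limma 3.58.1), a covariate, left-out libraries and summed counts. 1 gene is not reported here.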

Additional observations from a re-analysis of the deposited data

Results flagged for a closer look

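Differences between lines of the same kind of contrast were singled out for 3 results, each by edgeR's test of the difference itself. Hmga1 differed between ih_CTC and ih_STC_BM by -1.387 on the log2 scale, and kept its call in 6 of 16 alternatives, with values from -1.73 to -0.21. Hmga2 differed between C12 and ih_BCTC by -1.517, and kept its call in 9 of 16, with values from -1.97 to -0.88. Igf2bp3 differed between ih_CTC and ih_STC_BM by 1.231, and kept its call in 8 of 16, with values from 1.08 to 1.34. C12 and ih_STC_BM each hold 2 libraries with an intron share under 3%, and ih_CTC and ih_BCTC hold none. With the intron share as a covariate, none of the 3 was called. The log2 fold change was then -0.70 for Hmga1 (edgeR adjusted p = 0.0778), -1.15 for Hmga2 (0.0909) and 1.08 for Igf2bp3 (0.0536). Whether that share is a cause of the differences was not tested.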

How the results depend on the processing

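No fold change of the 6 genes against a precursor, and none of the 3 called differences between lines, changed sign under any alternative run. The order of line means did change between neighbours that did not differ past the test: ih_DCTC came before ih_CTC for Hmga2 under RLE and upper-quartile scaling, and C12 before ih_CTC for Igf2bp3 under upper-quartile scaling. The number of the 6 genes called was 3 for ih_STC_BM against MSC when only the compared groups were fitted, and 3 for MDSC against MSC with the intron share as a covariate. Over the fits that left out 1 library it ranged from 3 to 5 for C12 against MSC, with 3 when MSC replicate 2 was left out. Single genes kept their side of the threshold in 641 of the fits with another setting and lost it in 24, and in the leave-one-out fits these numbers were 321 and 27. The cause was not tested. Over all genes, fitting only the compared groups gave 1786 calls for ih_STC_BM against MSC (5066 with all groups), 8406 for ih_CTC against MSC (5454) and 11425 for MDSC against MSC (7259), and the last was 4149 with the MDSC libraries summed. Leaving out MSC replicate 1 gave 3118 to 3604 calls over the 5 lines against MSC. Upper-quartile scaling moved the median of all genes against MDSC by 0.17 to 0.27. The labels give no replicate numbers, so the numbers used here follow the order of the samples within each label, and no paired analysis was made. The Lin28b comparisons rest on 24 to 172 counts per line and, for MSC, on 2 libraries.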
